A study of Mus musculus with 21 samples.

Results

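The comparison set out here is the step from pachytene spermatocytes to round spermatids in wild-type mouse testis, read in all 24456 genes listed in the deposited count files. It takes in 6 of the 21 libraries of the series: 3 of WT pachytene spermatocytes and 3 of WT round spermatids. Pachytene spermatocytes are the cells in the long prophase of the first meiotic division, and round spermatids are the haploid cells that follow the second division. By its title the series addresses gene expression under H2A.L.2, a late histone H2A variant of the male germline, and the study used the wild-type round libraries to group genes by expression. The series also holds condensing spermatids and sperm, each from wild-type and *H2al2* KO animals. The 6 libraries used here carry no engineered allele. Their strain and the age of the animals are not given in the sources used here, and the cell fractions were purified from testis tissue, so each library is a cell population and not a single cell type. In such bulk samples fewer cells of a type and less RNA per cell cannot be told apart. The study describes the wild-type round libraries as biological replicates. Whether the pachytene libraries come from separate animals is not given in the sources used here, so part of the spread between them may be technical.

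At meiotic exit the male germ cell changes its programme. In pachytene cells homologous chromosomes are held by the synaptonemal complex and repaired by recombination, small piRNAs and their PIWI partners are abundant, and the X and Y chromosomes are condensed into a transcriptionally silent body. The haploid spermatid then builds an acrosome, a flagellum and a reshaped head, and replaces its histones first by transition proteins and then by protamines. Many of the genes for these structures are transcribed in round spermatids and stored as messenger RNA, and the activator CREM, with its testis partner FHL5, is known to drive a large group of them through cAMP-response elements.

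Counts on genes ranged from 6206239 to 8201682 per pachytene library and from 7326572 to 7852780 per round library. The values below are CPM (a gene's counts divided by the library's total and scaled to a common size) after TMM scaling, a correction for differences in RNA composition between libraries, and genes were tested by the quasi-likelihood method of edgeR, with p-values adjusted (Benjamini-Hochberg) over all 13100 genes that had enough counts. A log2 fold change is round minus pachytene. The pachytene libraries varied more among themselves than the round libraries did, with a median SD of log2(CPM + 1) over tested genes of 0.184 against 0.142. Round replicates 2 and 3 lay close together. Their counts differed by a chi-square of 1.06 per gene among genes of 100 to 1000 counts. The value was 1.33 for 1000 to 10000 counts and 8.76 above 10000 counts. Round replicates 1 and 2 differed by 4.44, 15.3 and 65.9 in the same classes. Because of the highest class replicates 2 and 3 were kept as 2 samples, but whether they are independent was not tested. With both summed 4669 genes rose and 4286 fell, and 22 named or listed genes lost their call.

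Most of the transcriptome was remodelled. Of 13100 genes tested, 72.3% passed the test: 4831 genes (36.9%) rose and 4646 (35.5%) fell. These shares are the background against which the counts of each gene list below are to be read. By the median and the 4-fold count the rises were larger than the falls, while 11 genes rose and 23 fell by at least 16-fold. Among the genes that rose, 1767 (13.5% of those tested) did so by at least 4-fold and the median rise was 3.07-fold. Among those that fell, 734 fell by at least 4-fold and the median fall was 2.20-fold. The genes that rose took 26.6 to 29.9% of the counts in pachytene libraries and 56.7 to 59.2% in round libraries, while the genes that fell went from 46.0 to 47.1% down to 20.1 to 22.3%. The split between rises and falls leans on the scaling. Without the TMM correction 3984 genes rose and 5688 fell, and the median of all genes moved from 0.03 to -0.25 on the log2 scale.

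The labels were checked against marker genes. All 11 markers of round spermatids, among them the acrosomal gene *Acrv1* and the kinase gene *Tssk2*, were higher in round libraries, and 7 of 10 markers of pachytene spermatocytes were lower, while *Ccna1* and *Dmc1* went the other way, *Dmc1* short of the test without pachytene replicate 2. The 10 markers of elongating and condensing spermatids, which include the protamine genes, were also all higher in the round libraries. Their summed level was 5264, 4758 and 2367 CPM in pachytene replicates 1, 2 and 3, which is 18.4, 16.6 and 8.27% of the mean of the round libraries (28620 CPM). The pachytene libraries thus held RNA of later genes in unequal amounts, lowest in replicate 3, and what part of each fold change this sets was not tested. Of the somatic cells of the testis, Leydig cell genes were lower in round libraries in 6 of 6 tested markers, with summed levels of 76.0 to 168 CPM in pachytene and 11.6 to 15.8 CPM in round libraries. Macrophage genes were higher in 7 of 7 tested markers, of 9 listed. They stayed low, at 4.04 to 6.20 CPM summed in pachytene and 34.9 to 45.5 CPM in round libraries. Here and in the other lists a gene could have enough counts for the test through the libraries of 1 stage alone. Among genes of low level this can favour calls toward that stage. Sertoli cell genes were higher in 5 of 9 tested markers, with sums of 52.4 to 58.4 and 80.5 to 102 CPM, and the 4 globin genes had no count in any of the 6 libraries. Of the other somatic lists, 1 of 4 tested markers of peritubular myoid cells rose (*Actg2*, 2.46), with sums of 81.5, 85.4 and 55.4 CPM in pachytene and 343, 344 and 351 CPM in round libraries, most of it *Actg2*. Of 4 tested endothelial markers *Kdr* rose and *Pecam1* fell, but *Kdr* did not pass without pachytene replicate 1 or round replicate 2, and *Pecam1* did not pass when any 1 round library was left out. Endothelial sums were 5.51 to 14.2 and 8.83 to 10.4 CPM. Finally, of 9 tested spermatogonial markers *Id4* fell (-3.54) and none rose.

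**Figure D1:**
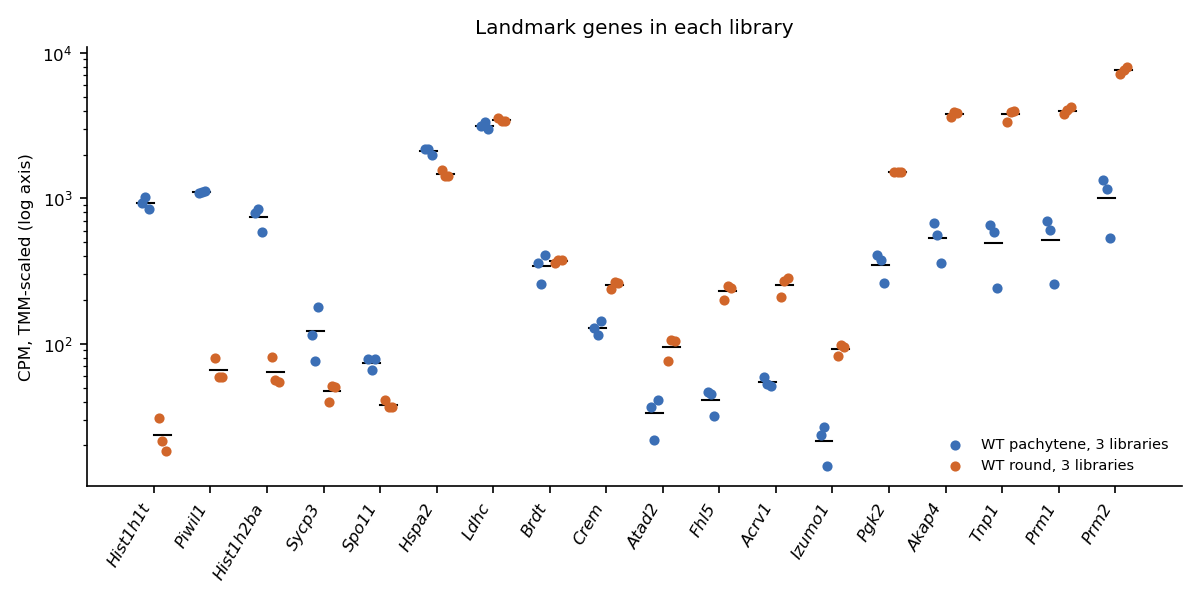
Each point is the level of 1 gene in 1 library, as TMM-scaled CPM on a log axis, with pachytene libraries in blue, round libraries in orange and the group mean as a black bar. *Hist1h1t* and *Piwil1* fell to a small part of their pachytene level, *Ldhc* and *Brdt* lay at nearly the same level in both stages, and *Tnp1*, *Prm1*, *Prm2* and *Akap4* rose to 3360 CPM or more in every round library.

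The largest fall of any named gene was that of *Hist1h1t*, which encodes the testis-specific linker histone H1t of spermatocytes. It lies on chromosome 13 (GRCm38, 23695811 to 23696545). Its level was 935, 1029 and 839 CPM in the 3 pachytene libraries and 31.0, 21.4 and 18.3 CPM in the 3 round libraries, so every round library lay far under every pachytene library. The difference was -5.31 ± 0.21 (SE) on the log2 scale, or 39.5-fold, with an adjusted p of 2.33e-06. Per kilobase of exon it went from 1025 to 25.9 CPM, from among the highest levels of the pachytene cells to a low one. *Hist1h2ba*, the testis H2B gene, followed it: it had 789, 845 and 588 CPM in pachytene libraries and 80.8, 56.2 and 54.4 CPM in round libraries, a log2 change of -3.54 ± 0.21. The partner gene *Hist1h2aa*, which codes for a testis H2A, changed by -1.67. All 3 genes were lower in every round library than in any pachytene library. Such a gap was common: the groups did not overlap in 4784 of the 4831 rises and 4562 of the 4646 falls over all 13100 tested genes.

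The histone genes of the haploid phase moved the other way. *H1fnt*, the gene of a spermatid linker histone, rose from 124 ± 40.2 to 780.2 ± 30.2 CPM (mean ± SD, n = 3), and *Hils1*, which codes for a second spermatid H1-like protein, rose from 129 ± 41.9 to 631 ± 8.15 CPM. The gene listed as *H2afb1*, an older symbol that RefSeq attaches to a gene of H2A.L.2 and to a gene of the related H2A.B, had 38.9, 32.9 and 14.8 CPM in pachytene and 206, 215 and 221 CPM in round libraries. Its log2 change was 2.88 ± 0.30. Scaled over the 18 libraries of spermatocytes and spermatids, its mean was 4.37 CPM in *H2al2* KO pachytene and 23.9 CPM in KO round libraries. Which gene the counts come from was not tested. Of 12 tested members of the list of testis histone variants and their replication-independent relatives, 5 rose and 7 fell. The 7 that fell included *H2afx* (-2.34), *H2afz* (-1.36) and *H2afy* (-1.64). The paralogs that both code for histone H3.3 parted, *H3f3a* rising from 231 ± 4.93 to 335 ± 13.7 CPM and *H3f3b* falling from 541 ± 17.7 to 270 ± 13.4 CPM, although reads that fit several close copies were not counted.

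All 5 genes of transition proteins and protamines rose. These small basic proteins package the sperm genome, and per kilobase of exon *Tnp1*, *Prm2*, *Tnp2* and *Prm1* were the nuclear genes with the highest levels in the round libraries. *Prm2* had 1330, 1151 and 531 CPM in pachytene replicates 1, 2 and 3 and 7196, 7615 and 7993 CPM in the round libraries. *Prm1* had 695, 604 and 256 against 3770, 4016 and 4225 CPM, and *Tnp1* had 652, 585 and 240.5 against 3360, 3941 and 4003 CPM. In all 3 genes the lowest value was in pachytene replicate 3, which was also the library with the smallest sum of condensing-spermatid markers. The log2 changes of *Tnp1*, *Tnp2*, *Prm1* and *Prm2* lay between 2.90 and 2.95, with standard errors of 0.31 to 0.34, and *Prm3* changed by 2.55. Per kilobase of exon *Tnp1* went from 1126 to 8622 CPM. In the list of 22 genes of histone exchange and histone modification 8 rose, 9 fell and 5 did not pass the test, close to the shares over all tested genes (36.9% and 35.5%). *Chd5*, a chromatin remodeller gene, rose from 189 ± 51.1 to 899 ± 70.3 CPM, *Cdyl* rose by 2.48 and *Psme4*, which codes for the proteasome activator PA200, rose by 1.27. *Psma8*, the gene of a testis proteasome subunit active in meiosis, fell by 2.71 and *Hira*, an H3.3 chaperone gene, fell by 1.41. *Brdt*, whose product binds hyperacetylated histones, was at 342 ± 77.2 and 369 ± 10.6 CPM, with a log2 difference of 0.11 ± 0.16 and an adjusted p of 0.547. *Atad2*, a bromodomain ATPase gene, had 36.6, 21.9 and 41.2 CPM in pachytene and 75.7, 106 and 105 CPM in round libraries and rose by 1.53 ± 0.24. Without pachytene replicate 1 the number of rises in this list was 5 instead of 8.

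Genes of the piRNA pathway fell more than those of any other germ-cell process except sex chromosome silencing, judged by the list medians. Of 19 tested genes 14 fell, 3 rose and 2 did not pass, with a median log2 change of -1.50 against 0.03 for all genes. *Piwil1* (MIWI), the main PIWI protein of pachytene piRNAs, had 1088, 1099 and 1128 CPM in pachytene and 79.5, 58.9 and 59.2 CPM in round libraries, a fall of 16.8-fold (log2 -4.07 ± 0.14, adjusted p 2.33e-06). Its gene lies on chromosome 5 (128736071 to 128755474). *Tdrd5* changed by -4.05, *Tdrd1* by -3.68, *Pld6* by -3.07 and *Piwil2* by -2.60; the tudor proteins bind PIWI proteins in germ granules and PLD6 is needed to make piRNA ends. The pachytene libraries lay close together on *Piwil1*, with a mean of 1105 ± 20.4 CPM (SD, n = 3). Against the others, *Gtsf1* rose by 0.82 and *Tdrd7*, a component of the chromatoid body of spermatids, by 0.41, whereas *Ddx4* (MVH) was at 531 ± 152 and 691 ± 42.1 CPM and did not pass the test (adjusted p 0.116). The rise of *Tdrd7* did not pass the test without the TMM correction. *Mael*, the third gene to rise, did not pass when any 1 pachytene library, round replicate 2 or round replicate 3 was left out. Without the TMM correction *Mael* turned to -0.05, short of the test. The fall of *Asz1* did not pass without pachytene replicate 1 or any 1 round library, and that of *Tdrd6* without round replicate 2 or round replicate 3.

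Meiotic prophase genes fell less uniformly. In the synaptonemal complex and HORMA-domain list 5 of 11 genes fell and 2 rose, and only 3 fell without pachytene replicate 1 or without round replicate 3. *Sycp3*, a lateral-element gene, had 115, 76.5 and 179 CPM in pachytene libraries and 40.0, 51.6 and 50.6 CPM in round libraries. Its log2 change was -1.38 ± 0.28. *Sycp1* was at 102, 59.4 and 213 and 65.1, 117 and 114 CPM, so the groups overlapped, and *Sycp2* ranged from 98.4 to 625 CPM among the pachytene libraries alone. Neither passed the test, but *Sycp2* did without pachytene replicate 2, with a log2 change of -1.54. The central-element gene *Syce2* rose from 46.6 ± 8.25 to 170.2 ± 11.8 CPM. Among 27 recombination genes 13 fell and 6 rose. *Spo11*, the gene of the enzyme that starts recombination by cutting DNA, had 78.3, 65.7 and 78.3 CPM in pachytene and 41.1, 36.8 and 36.8 CPM in round libraries and fell by 0.95. *Ccnb1ip1* (HEI10) fell by 3.17, *Spata22* by 2.50 and *Mlh3* by 2.44, genes that act in strand exchange and crossover formation. *Tex15*, required for repair of meiotic breaks, went up: it had 38.1, 19.9 and 101 CPM in pachytene and 192, 469.8 and 448 CPM in round libraries, and its log2 change of 2.82 became 3.57 without pachytene replicate 3. *Brca2* (-1.07, adjusted p 0.0606) passed only without pachytene replicate 2, and the cohesin gene *Smc1b* (1.02, adjusted p 0.0932) only without pachytene replicate 3 among the fits that left out 1 library. *Rec8*, the cohesin kleisin that holds sister chromatids to the second division, rose from 32.1 ± 8.68 to 129 ± 2.17 CPM.

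Of 21 cyclins, kinases and other regulators of the meiotic divisions 11 rose and 7 fell, the falls being near the 35.5% of all tested genes. *Cdk2*, whose kinase works at crossover sites and telomeres in prophase, had 117, 126 and 133 CPM in pachytene and 14.2, 10.0 and 12.4 CPM in round libraries and changed by -3.35 ± 0.14. *Cdk1* changed by -1.09 and *Bub1b*, a spindle checkpoint gene, by -1.26. The M-phase cyclin genes *Ccnb1* (1.57) and *Ccna1* (0.87), the phosphatase gene *Cdc25c* (2.09) and the kinase gene *Plk1* (1.27) rose, so that transcripts of several division regulators were higher after the divisions than in the pachytene libraries. *Hspa2*, the gene of the chaperone that activates CDK1 in spermatocytes, stayed abundant, at 2109 ± 108 and 1469 ± 79.7 CPM, and fell by 0.52.

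Among the transcription factors of spermiogenesis 7 of 11 rose and 2 fell, or 1 when any 1 round library was left out. *Crem* had 128, 115 and 143 CPM in pachytene and 238, 265 and 263 CPM in round libraries, a log2 rise of 0.99 ± 0.11. *Fhl5*, its co-activator gene, had 46.6, 45.0 and 31.7 CPM in pachytene and 201, 248 and 242 CPM in round libraries and rose by 2.48 ± 0.17. The HMG-box factor genes *Sox30* (1.07) and *Sox5* (1.75) rose as well, as did *Taf7l* (1.48), the X-linked gene of a testis TFIID subunit. *Rfx2* was expressed at 398 ± 15.1 and 467 ± 8.55 CPM, and its small rise of 0.23 turned to -0.04, short of the test, without the TMM correction and did not pass in 5 of the 6 fits that left out 1 library, while *Rfx1* and *Rfx3* rose by 2.20 and 2.08. *Mybl1* (A-MYB), the factor of pachytene transcription, had 142, 68.9 and 232 CPM in pachytene libraries, overlapped the round libraries (60.6, 83.5 and 71.5 CPM) and had an adjusted p of 0.0359. That call was lost when any 1 round library was left out. *Tbpl1* (TRF2) was at 285 ± 20.9 and 305 ± 3.25 CPM and did not pass the test. *Gmcl1*, a germ-cell-less family gene, fell from 399 ± 62.6 to 52.7 ± 4.50 CPM.

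**Figure D2:**
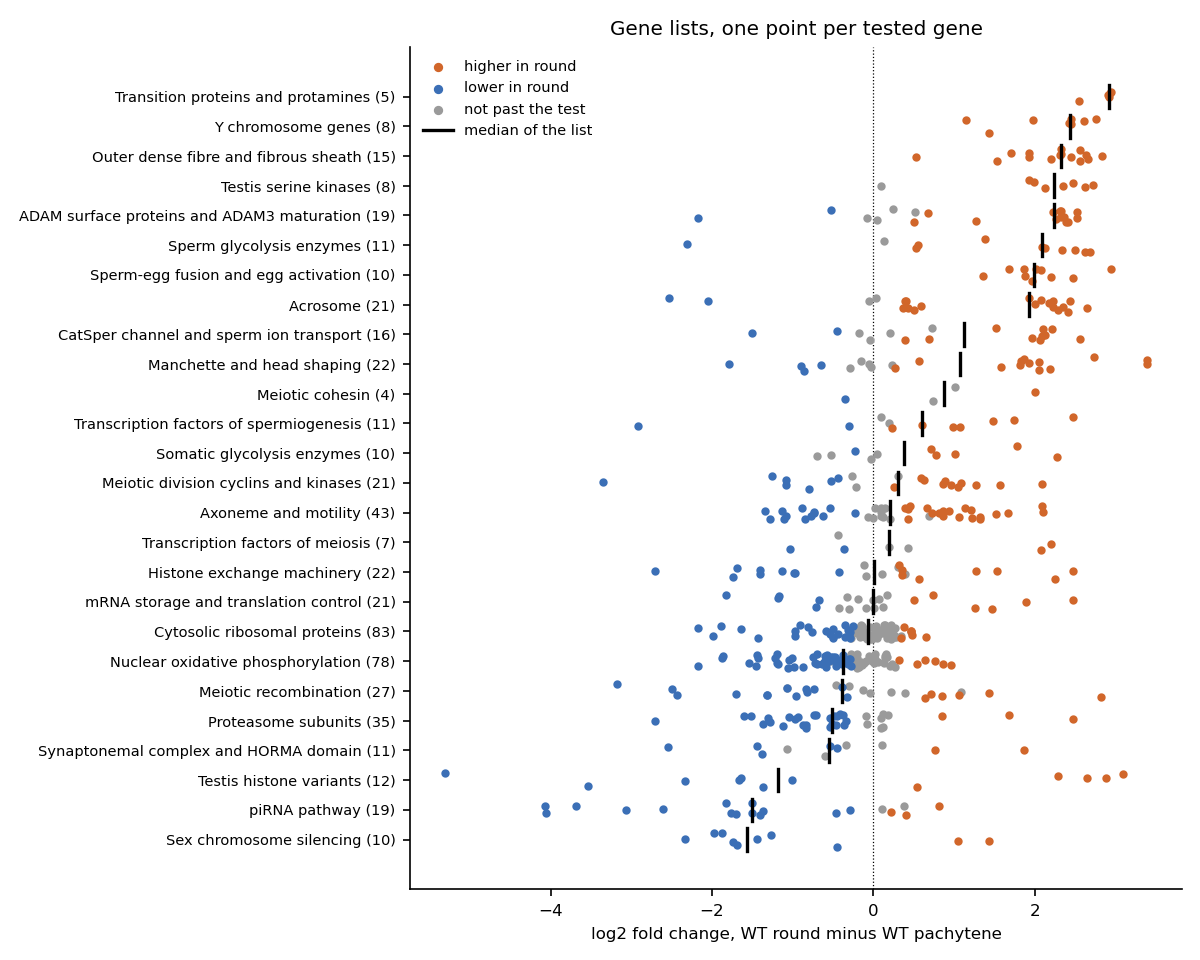
Each point is the log2 fold change (round minus pachytene) of 1 tested gene, in orange where it rose, blue where it fell and grey where it did not pass the test, with the number of tested genes in parentheses and the list median as a black bar. Transition proteins and protamines had the highest median (2.92), and sex chromosome silencing and piRNA genes the lowest (-1.56 and -1.50).

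Some of these list counts depend on the scaling. Without the TMM correction the number of rises was 5 for histone exchange, 3 for recombination and 1 each for the piRNA pathway and oxidative phosphorylation, and the number of falls was 7 for manchette and head-shaping genes.

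Genes of the acrosome, the vesicle of enzymes and receptors that covers the sperm head, rose in 17 of 21 cases. *Acrv1* had 58.9, 52.9 and 51.2 CPM in pachytene and 209, 270.4 and 281 CPM in round libraries (log2 2.22 ± 0.14), *Spaca1* changed by 2.36 and *Spam1*, a hyaluronidase gene, by 2.44. *Acr*, the gene of the protease acrosin, was already at 173 ± 20.2 CPM in pachytene libraries and rose to 246 ± 5.23 CPM, a log2 change of 0.51 that did not pass without the TMM correction. *Gopc* and *Tmprss12* fell by 2.54 and 2.05. GOPC is a Golgi protein needed to form the acrosome, and TMPRSS12 is a testis serine protease. All 10 genes of sperm-egg fusion and egg activation rose. *Izumo1*, the sperm ligand of the egg receptor, had 23.6, 26.7 and 14.4 CPM in pachytene and 83.0, 97.7 and 94.8 CPM in round libraries. *Plcz1*, the phospholipase that starts calcium waves in the egg, rose from 48.8 ± 13.0 to 374 ± 27.7 CPM (2.94 ± 0.19). Among ADAM surface proteins and the genes that mature ADAM3, 13 of 19 rose. *Adam3* rose by 1.27, whereas *Adam2*, also a sperm surface gene, fell by 0.52 and *Tex101* fell by 2.17.

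The parts of the flagellum differed. All 15 genes of the outer dense fibres and the fibrous sheath, the structures that wrap the axoneme, rose, with a median of 2.33. *Akap4*, the main fibrous sheath gene, lies on the X chromosome (7067515 to 7078609) and had 680.1, 558 and 360.1 CPM in pachytene and 3637, 3923 and 3868 CPM in round libraries, a log2 change of 2.84 ± 0.22 and an adjusted p of 1.21e-05. *Odf1* rose by 2.57, *Smcp* of the mitochondrial sheath by 2.66 and *Cabyr* by 2.33. *Odf2*, a dense fibre gene that is also used in centrosomes, rose less, by 1.54, from 2120 ± 317 to 6156 ± 113 CPM. Of 43 axoneme and motility genes, in contrast, 20 rose, 13 fell and 10 did not pass, with a median of 0.20. Over all tested genes 36.9% rose and 35.5% fell. Of the 5 axonemal dynein heavy chain genes on the list 4 fell and *Dnah10* rose (0.42), a call lost without pachytene replicate 1. *Dnah8* fell from 6316 ± 1188 to 2607 ± 142 CPM, *Dnah2* fell by 1.34, *Dnah1* by 1.11 and *Dnah17* by 0.84. The radial spoke gene *Rsph1* fell by 1.09. The tektin genes *Tekt1* to *Tekt5* all rose, by 0.73 to 1.67, as did *Cfap58* (2.11) and *Spag6l* (2.09). These 4 motor genes thus had their higher level in pachytene libraries, and the listed sheath genes had theirs in round libraries.

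In the CatSper list, which holds the sperm calcium channel and other ion transporters, 10 of 16 tested genes rose and 2 fell. The 4 pore-forming subunits all rose, *Catsper1* by 2.11, *Catsper3* by 2.07, *Catsper4* by 2.10 and *Catsper2* by 0.69. *Catsper2* differed from the rest in its pachytene level of 271 ± 15.5 CPM against 36.2 ± 9.42 CPM for *Catsper1*. The auxiliary genes *Catsperb* (-0.04) and *Catsperd* (-0.18) did not pass and *Catsperg2* fell by 0.45. The sodium pump gene *Atp1a4* rose from 203 ± 57.8 to 1201 ± 78.7 CPM. Of 22 manchette and head-shaping genes 13 rose and 4 fell. The cylicin genes *Cylc1* and *Cylc2*, which code for proteins of the calyx around the sperm nucleus, had some of the largest rises of all genes. *Cylc1* had 14.0, 7.17 and 13.2 CPM in pachytene and 73.1, 146 and 139 CPM in round libraries (3.39 ± 0.34), and *Cylc2* had 15.8, 10.2 and 13.8 and 71.5, 169 and 176 CPM (3.39 ± 0.36). Both were lower in round replicate 1 than in replicates 2 and 3. The microtubule linker gene *Hook1* rose by 2.06 and *Spem1* by 2.74. Of 8 testis kinase genes 7 rose, *Tssk1* by 2.13, *Tssk2* by 2.47, *Tssk3* by 2.72 and *Tssk6* by 2.62, while *Stk33* (0.09) did not pass.

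Of 11 genes of sperm glycolysis 9 rose, the glucose transporter gene *Slc2a3* fell and *Ldhc* did not pass. *Pgk2*, the testis phosphoglycerate kinase, had 405, 377 and 262 CPM in pachytene and 1528, 1510 and 1515 CPM in round libraries (2.12 ± 0.16), *Gapdhs* rose from 347 ± 134 to 2134 ± 42.4 CPM and *Hk1* rose by 2.09. *Ldhc*, the testis lactate dehydrogenase, was abundant in both stages, at 3163, 3331 and 2974 CPM and 3578, 3425 and 3397 CPM, with a difference of 0.14 ± 0.08 (adjusted p 0.168). *Slc2a3* (GLUT3) fell from 3527 ± 243 to 712 ± 103 CPM. Genes of oxidative phosphorylation encoded in the nucleus leaned down, with 43 of 78 lower, 6 higher and a median of -0.38, and proteasome subunit genes did too, with 25 of 35 lower and a median of -0.51. Cytosolic ribosomal protein genes had 23 of 83 lower, 6 higher and 54 not past the test, with a median of -0.07. Their share of falls lay under the 35.5% of all tested genes. The lower count was 42 without the TMM correction and also 42 without pachytene replicate 3. The higher count was 1 without pachytene replicate 1. Of 12 tested mitochondrially encoded genes 11 fell, with a median of -0.96, but *mt-Rnr1* and *mt-Rnr2* did not pass without round replicate 1 or without round replicate 3.

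The sex chromosomes stood apart from the autosomes. Of 412 tested X-linked genes 339 (82.3%) rose and none fell, against 35.3% and 36.6% of 12626 autosomal genes. A gene could pass the minimum count through its round libraries alone, and with no minimum 409 of 816 X-linked genes (50.1%) rose and none fell, with 4 lower at an unadjusted p under 0.05 by edgeR. A rise of at least 4-fold was seen in 188 X-linked genes (45.6%) and in 12.4% of autosomal genes. The median log2 change was 1.85 for X-linked and -0.03 for autosomal genes, and the median level of a tested X-linked gene went from 2.41 to 7.59 CPM. By edgeR no tested X-linked gene was lower even at an unadjusted p under 0.05, and DESeq2 and limma-voom also called 0 lower, with 0 and 1 at an unadjusted p under 0.05. Leaving out 1 library added a few calls: *Apln*, *Efnb1*, *Tmem164* and *Tmem35* passed as lower without pachytene replicate 1, and *Ndufa1* did so without pachytene replicate 3 or round replicate 1. These 5 genes are named after their values were seen. The X-linked share of all counts on nuclear genes was 0.323, 0.319 and 0.273% in the pachytene libraries and 1.10, 1.26 and 1.25% in the round libraries. The means were 0.305 ± 0.0278% and 1.20 ± 0.0871% (SD, n = 3), a difference of 0.899 percentage points with an exact two-sided permutation p of 0.1, the smallest p that 3 against 3 libraries can give. Without *Akap4*, the 1 gene that held over 10% of the X-linked counts, the difference was 0.602 points.

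**Figure D3:**
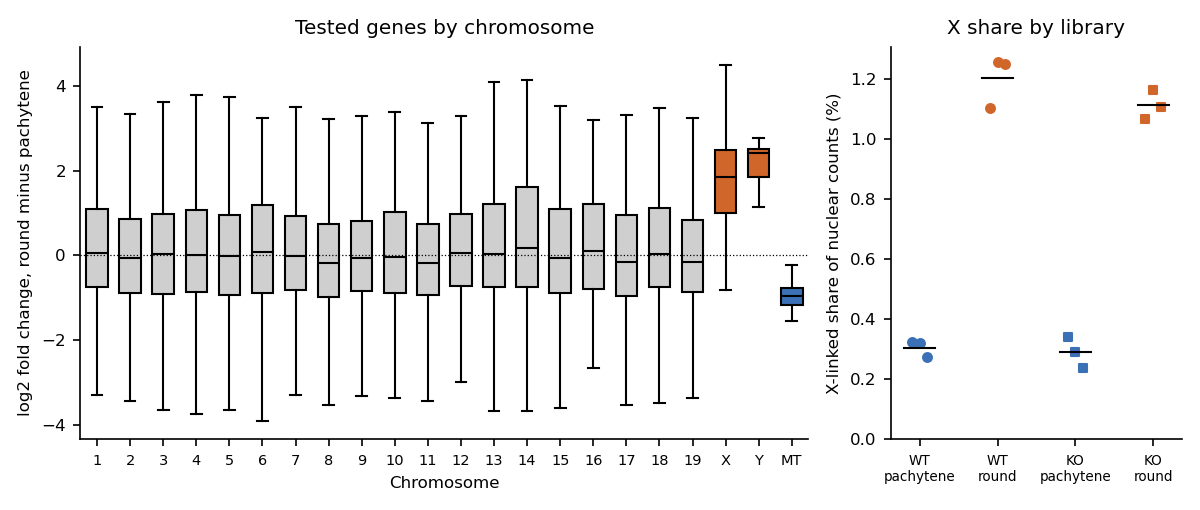
The left panel gives the log2 fold change (round minus pachytene) of tested genes by chromosome, with boxes from the lower to the upper quartile, a line at the median and whiskers to the last gene within 1.5 box lengths. The right panel gives the X-linked share of counts on nuclear genes in percent for each library, with the group mean as a bar. The X and Y boxes lie above 0, the mitochondrial box lies below it, and the round libraries of both genotypes lie at 1.07% or more while no pachytene library exceeds 0.340%.

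The X-linked genes with the largest rises were *Cylc1*, *Tcp11x2*, *Arhgef6*, *Cpxcr1* and *Gm6760*, with log2 changes of 3.15 to 3.39. *Arhgef6*, the gene of a Rac exchange factor, had 7.92, 6.21 and 5.09 CPM in pachytene and 55.0, 63.4 and 65.6 CPM in round libraries. Of 48 listed Y-linked genes 11 were tested and all 11 rose, with a median of 2.43. Their median level went from 1.76 to 8.83 CPM, and here too a gene could pass the minimum count through its round libraries alone. The translation factor gene *Eif2s3y* rose from 9.96 ± 1.41 to 60.7 ± 10.8 CPM, and *Zfy2*, a zinc-finger gene needed in meiosis, from 2.12 ± 1.30 to 13.9 ± 5.06 CPM. The machinery that silences the sex chromosomes fell over the same step. Of 10 genes on that list 8 fell and 2 rose. *H2afx*, the gene of the histone phosphorylated over the sex body, had 269.8, 288 and 229 CPM in pachytene and 63.3, 44.0 and 47.9 CPM in round libraries. *Mdc1*, its reader, fell by 1.87, *Topbp1* by 1.97, the kinase gene *Atr* by 1.68 and *Setdb1*, an H3K9 methyltransferase gene, by 1.27. *Scml2* and *Brca1* rose, by 1.05 and 1.43.

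Autosomal retrocopies of X-linked housekeeping genes are known to stand in for their silenced parents in meiosis, and 10 such pairs were read. Of the 10 X-linked parents 6 rose and none fell. Of the autosomal copies 3 rose, 3 fell and 4 did not pass. The fall of *Rpl36al* (-0.28) did not pass without pachytene replicate 1, round replicate 2 or round replicate 3. *Pgk1* rose from 3.70 ± 0.434 to 7.50 ± 1.04 CPM and remained far under *Pgk2*. *Cstf2*, a polyadenylation factor gene, had 22.5, 22.7 and 16.0 CPM in pachytene and 79.2, 93.3 and 92.4 CPM in round libraries, while its copy *Cstf2t* had 142, 134 and 137 and 45.2, 41.1 and 42.0 CPM. This was the pair with the clearest exchange: the parent rose by 2.11 and the copy fell by 1.69. *Pdha2* fell by 0.65 without a passing rise of *Pdha1* (0.57, adjusted p 0.308). *Ubl4b* and *G6pd2* rose by 2.68 and 2.16, and *Cetn1* stayed at 459.5 ± 54.8 and 543 ± 4.74 CPM. Reads that align to several places were not counted, so the levels of genes with near-identical copies such as *Pgk1*, *Rpl10* and *Gapdh* are uncertain.

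Because genes with CREM-dependent promoters are a known group of the haploid phase, the promoters of the changed genes were read in RefSeq's table of the GRCm38.p6 assembly, which holds 300 bases per start site (250 before it and 50 after). Of the 13100 tested genes 80.3% had an entry. The letters searched were TGACNTCA on either strand, where N is any base. TGACGTCA is the full cAMP-response element, which reads the same on both strands, and the other 3 forms are near variants of it. They were present in 8.83% of all 32851 promoters in the table. By gene, counting any of its promoters, they were present in 10.6% of tested genes, in 23.9% of the genes that rose by at least 4-fold (333 of 1396), in 7.68% of those that fell by at least 4-fold (45 of 586) and in 8.45% of genes that did not pass. X-linked genes that rose held them in 10.9% of cases. The forms differed. TGACATCA, with its other strand TGATGTCA, was in 12.8% of genes that rose by at least 4-fold and in 3.65% of tested genes. For TGACCTCA the shares were 6.02% and 2.27%, for TGACTTCA 3.30% and 1.49%, and for the full TGACGTCA 3.58% and 3.72%. Only the full form holds the letters CG, and the shares were not adjusted for base composition. The matches in genes that rose by at least 4-fold lay within 100 bases before the start in 75.1% of cases, against 63.5% over tested genes. The same promoters were poor in the dinucleotide CG, with a median of 6 per promoter against 21 over tested genes and 20 in genes that fell by at least 4-fold. These shares are descriptions with no test, and a match is not a bound site.

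**Figure D4:**
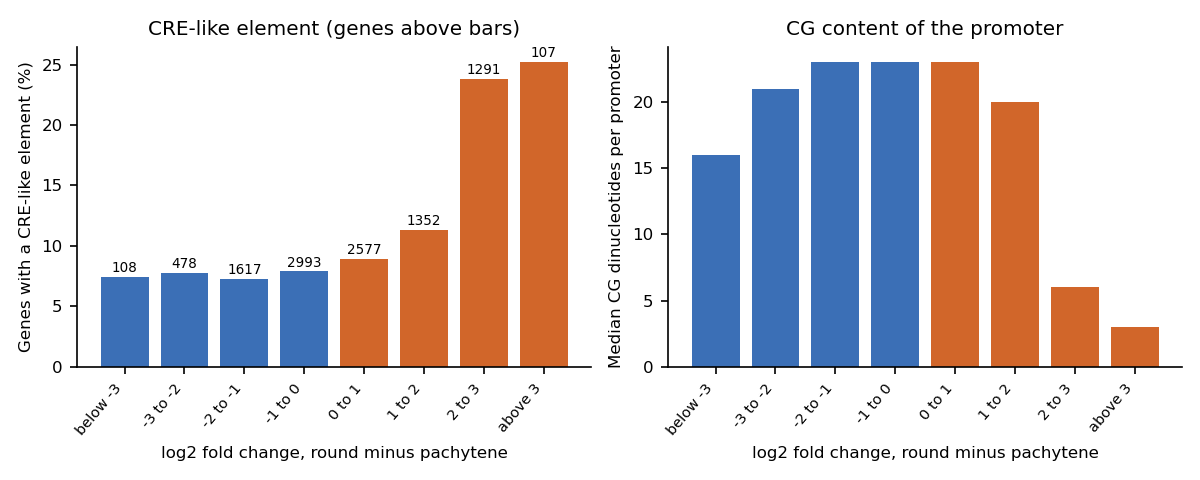
The left panel gives the percentage of genes whose promoter holds a CRE-like element, by log2 fold change (round minus pachytene), with the number of genes above each bar, and the right panel gives the median number of CG dinucleotides per promoter. The share of genes with the element lies between 7.24 and 8.93% in the 5 bins up to a log2 change of 1, and at 11.3, 23.8 and 25.2% in the bins above, where CG dinucleotides drop to a median of 6 and 3.

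To show what these promoters look like, the 100 bases before the annotated start are printed for 9 genes, chosen after their values were seen, with each match in capitals. The first 8 rose and *Cstf2t* fell.
Tnp1 (chr1:73015900-73015999, - strand): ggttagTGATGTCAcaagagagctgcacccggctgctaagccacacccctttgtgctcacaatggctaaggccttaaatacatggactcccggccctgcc
Prm1 (chr16:10796824-10796923, - strand): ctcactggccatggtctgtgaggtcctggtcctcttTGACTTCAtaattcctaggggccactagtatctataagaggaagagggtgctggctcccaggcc
Akap4 (chrX:7067415-7067514, + strand): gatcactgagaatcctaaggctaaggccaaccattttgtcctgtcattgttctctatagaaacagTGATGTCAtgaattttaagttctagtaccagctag
Cylc1 (chrX:111110318-111110417, + strand): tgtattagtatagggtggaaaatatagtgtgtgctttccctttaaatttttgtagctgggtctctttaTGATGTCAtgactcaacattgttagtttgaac
Spam1 (chr6:24791088-24791187, + strand): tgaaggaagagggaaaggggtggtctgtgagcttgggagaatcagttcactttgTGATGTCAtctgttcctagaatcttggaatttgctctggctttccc
Izumo1 (chr7:45621711-45621810, + strand): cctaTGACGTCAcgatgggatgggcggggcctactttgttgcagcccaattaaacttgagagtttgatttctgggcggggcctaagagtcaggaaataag
Ccin (chr4:43983404-43983503, + strand): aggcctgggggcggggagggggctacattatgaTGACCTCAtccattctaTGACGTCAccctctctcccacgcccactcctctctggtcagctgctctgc
Tssk1 (chr16:17894103-17894202, + strand): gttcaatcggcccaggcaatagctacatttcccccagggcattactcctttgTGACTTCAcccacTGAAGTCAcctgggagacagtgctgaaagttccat
Cstf2t (chr19:31082741-31082840, + strand): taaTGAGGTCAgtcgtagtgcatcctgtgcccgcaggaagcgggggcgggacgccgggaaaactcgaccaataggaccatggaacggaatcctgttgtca
*Tnp1*, *Akap4*, *Cylc1* and *Spam1* carry TGATGTCA, *Prm1* carries TGACTTCA, and *Izumo1* carries the full element. *Ccin*, a calicin gene of the sperm head that rose by 2.05, and *Tssk1* carry a pair of matches each. The match in *Cstf2t* shows that the letters also occur in a promoter whose gene fell.

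The step was also read in H2A.L.2-deficient cells, from 3 *H2al2* KO pachytene and 3 *H2al2* KO round libraries that share none with the wild type. Of 12828 genes tested there 76.9% passed the test, 4742 (37.0%) higher and 5122 (39.9%) lower in round libraries. Of the 4681 wild-type rises that were tested in both genotypes, 91.5% also passed as rises in the KO libraries and none passed as a fall. Of 4582 wild-type falls 93.8% also passed as falls and none as a rise. Read from the KO side, 92.0% of rises and 84.5% of falls passed in the wild type too. *Tnp1* changed by 2.94 in wild type and 3.35 in KO libraries, *Akap4* by 2.84 and 2.91, *Piwil1* by -4.07 and -4.12, and *Hist1h1t* by -5.31 and -5.31. *Sycp1* and *Sycp2*, which did not pass in the wild type, changed by -1.32 and -2.33 and passed in the KO libraries. The difference between the genotypes was not tested here.

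**Figure D5:**
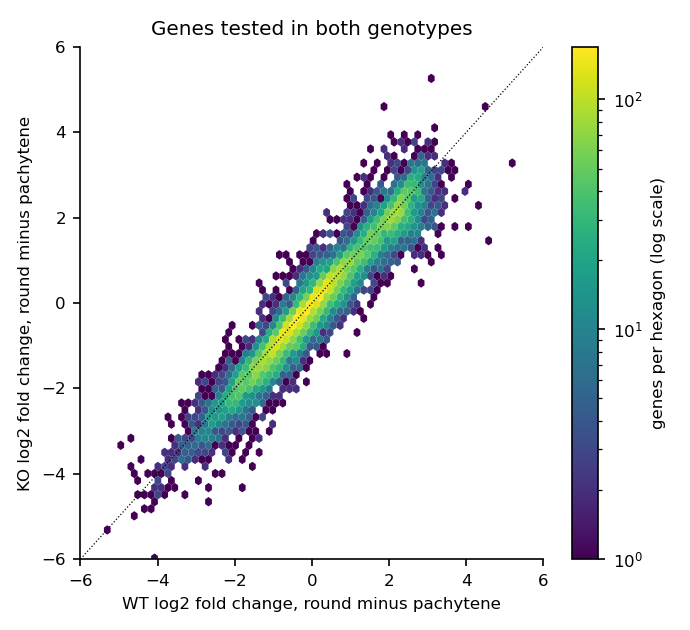
Each hexagon counts genes by their log2 fold change (round minus pachytene) in wild type on the horizontal axis and in *H2al2* KO libraries on the vertical axis, coloured on a log scale, with equal values on the dotted line. The 12645 genes tested in both genotypes form a band along the line, and no gene passed the test in opposite directions.

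Over all tested genes, the largest rises among genes of at least 20 CPM in the higher stage were those of *Gm5591* (4.02 ± 0.47), *Cylc1*, *Cylc2*, *Speer4b*, *Tcp11x2* and *Filip1* (3.29 ± 0.18). *Filip1*, a filamin-interacting protein gene, had 3.67, 3.96 and 2.54 CPM in pachytene and 31.0, 32.1 and 38.3 CPM in round libraries. *Naalad2*, a glutamate carboxypeptidase gene, rose from 2.81 ± 0.638 to 26.4 ± 0.890 CPM. *4921507P07Rik* was the most abundant of the 15 genes with the largest rises, with 104, 73.7 and 54.2 CPM in pachytene and 634, 768 and 719 CPM in round libraries. The largest falls after *Hist1h1t* were those of *Pou5f2*, a POU-domain factor gene of the germline, at 74.0, 84.7 and 94.6 CPM in pachytene and 2.21, 4.79 and 3.48 CPM in round libraries (-4.59 ± 0.23), and of *Gm21269* (-4.54). *Tgfa*, the gene of a growth factor of the EGF family, fell from 26.9 ± 2.04 to 1.40 ± 0.181 CPM, and *Mgll*, a monoacylglycerol lipase gene, from 300 ± 22.8 to 18.2 ± 3.33 CPM. In both of these genes the groups did not overlap, which the rule that named them required. The 15 largest falls ranged from -3.99 to -5.31 and the 15 largest rises from 3.10 to 4.02.

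Genes that store and translate messenger RNA had a median of 0.00, and 10 of 21 did not pass the test. *Ybx1* and *Ybx3* had log2 changes of 0.00 and 0.00, and *Ybx2*, the Y-box protein of stored germ cell messages, had 1516, 1589 and 1435 CPM in pachytene and 1759, 1664 and 1673 CPM in round libraries. *Papolb*, a testis poly(A) polymerase gene, rose by 1.26, *Paip2* by 1.89 and *Samd4* by 2.48, while *Tsn* fell by 1.82. Without the TMM correction 11 of the 21 genes fell instead of 5, *Ybx1* and *Ybx3* among them at -0.27 each, and without pachytene replicate 2 the number was 9.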

How the data were processed

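Total RNA of purified spermatogenic cell fractions was depleted of ribosomal RNA and sequenced as stranded paired-end reads of 75 bases. The deposited files hold raw read counts per gene: the authors aligned the reads, untrimmed, to mm10 with STAR 2.7.11b and counted exon reads on the reverse strand with HTSeq, leaving out reads that align to several places, and the submitters' processing notes also name DESeq2 1.22.2. The 5 rows of each file that name no gene (34.8 to 46.5% of all rows' counts in the 6 wild-type libraries) were left out.

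Genes were matched to GRCm38 annotation by symbol (23217), by an older symbol (1102) or not at all (137). Round and pachytene libraries were compared with edgeR 4.0.16 (filterByExpr, TMM, glmQLFit and glmQLFTest) in R 4.3.3, at an adjusted p under 0.05. DESeq2 1.42.0, limma 3.58.1 (voom), other scalings, filters, sample sets and leaving out each replicate were alternatives. In simulated data for this comparison (13068 genes) 94% of 2-fold and 100% of 4-fold changes were recovered, and 12 of 206 calls were unchanged genes. The simulation changed few genes, all well counted, split rises and falls evenly and gave every gene the same spread. Recovery where 72.3% of genes pass, as here, was not simulated. The lowest level that a count of 0 allows (3 counts over a group) is 0.121 CPM in pachytene and 0.145 CPM in round libraries and covers counting error only.

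The comparison, the gene lists and the alternatives were chosen with earlier results of these data known. Genes were named by rank (the 15 largest changes per direction with at least 20 CPM in the higher stage and no overlap between groups), as the leading, opposed or unmoved members of the lists, and as landmarks of meiosis and spermiogenesis. Whether libraries of the same replicate number come from the same animals is not given in the sources used here. The correlations of same-numbered deviations were 0.153, -0.215 and 0.207, which cannot decide it, and the main fit did not pair the libraries.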

Additional observations from a re-analysis of the deposited data

How the results depend on the processing

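The counts of genes higher and lower in round libraries stayed within 1.5 times the main counts (4831 and 4646) under other tools, scalings, filters and sample sets, with 3984 to 5299 higher and 4286 to 5688 lower, and a 2-fold minimum left 3424 higher and 2716 lower genes, the latter count past that range. Leaving out 1 library gave 4357 to 4857 higher and 4181 to 5040 lower genes. In the KO libraries the same omissions gave 4552 to 4830 higher and 4684 to 5127 lower genes. X-linked genes higher in round libraries numbered 309 to 409, and the X-linked share differed by 0.602 to 0.949 percentage points. X-linked genes called lower numbered 0 in the main comparison, 1 in the fits of 9 and of 18 libraries and with the replicate block, 2 on library size only, and 0 to 4 when 1 library was left out. Library size alone turned *Eif4g3* to -0.0226, *Rfx2* to -0.0442, *Rimbp3* to -0.0082, *Mael* to -0.0538, *Ybx1* to -0.273 and *Ybx3* to -0.275. Of these only *Ybx1* and *Ybx3* passed as falls. Which scaling is closer to the cells was not tested. Of 436 named or listed genes tested, 344 stayed on their side of the threshold in each alternative.

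A fit with a replicate block found 4741 genes higher and 4497 lower in wild type, and 4704 and 5029 in the KO libraries. Of the named or listed genes, 16 lost their call and 4 gained one under the block. Whether the replicate numbers pair the libraries is not known, so what these changes reflect was not tested. Depth limits genes of a few counts, and the spread between the pachytene libraries limits meiotic genes such as *Sycp2* and *Brca2*.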

Other observations

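Gene classes outside the lists also moved. Of 780 tested long noncoding RNAs, 430 (55.1%) were higher in round libraries and 170 (21.8%) lower, with a median log2 change of 1.11, against 35.6% and 36.4% of 12163 protein-coding genes with a median of -0.01. Of the 3247 genes with the shortest summed exons (up to 2.55 kb), 48.4% were higher and 28.5% lower, and in the 3 classes of nearly equal size with longer exons 31.6 to 34.0% were higher. Of 1107 olfactory receptor genes listed, 938 had no count in any of the 6 libraries and 3 had enough counts to be tested. All 3 rose, but a gene could pass the minimum count through its round libraries alone.

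Genes of somatic glycolysis did not move as one. Of 10 tested genes 5 rose and 1 fell, and the rises of *Pkm* (2.27) and *Aldoa* (1.78) were the largest, while *Gapdh* did not pass (-0.03). Without pachytene replicate 1 only 3 rose, and the number of falls was 0 without pachytene replicate 2, round replicate 2 or round replicate 3 and 2 without pachytene replicate 3. Of the 4 meiotic cohesin genes tested 1 rose (*Rec8*) and 1 fell (*Stag3*, -0.35), and 2 rose without pachytene replicate 3 or without round replicate 1. Of 7 transcription factors of meiosis tested 2 rose and 2 fell, or 1 fell when any 1 round library was left out. *Fabp9*, a testis fatty acid binding protein gene, was among the nuclear genes with the highest level per kilobase of exon in both stages and rose by 0.91, and *Dbil5*, a testis gene of the acyl-CoA binding family, rose by 2.25 from 218 to 1038 CPM.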
